A study of Mus musculus with 140 samples.

Results

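Annexins and S100 proteins were followed through the knockdown of single self-renewal regulators in mouse embryonic stem cells. The 9 genes were Anxa1, Anxa2, Anxa3, Anxa4, Anxa5, S100a4, S100a6, S100a10 and S100a11, and their members were all probe sets that the platform annotation gives to only 1 of these genes. There were 15 such probe sets of 45265 on the MOE430A and MOE430B arrays, and 35067 of the 45265 name exactly 1 gene. The genes had been selected on earlier results of these same arrays, so their differences between courses are a description, and an adjusted p beside a member only records whether a call held without a sample or under another setting. The only probe set for S100a11 also names other genes, so 8 of the 9 genes had a member and S100a11 has no value.

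The cells were of the CCE line, male embryonic stem cells of the 129/Sv strain. Hairpin courses (7 in all) used a short hairpin RNA (shRNA) directed at Nanog, Oct4 (encoded by Pou5f1), Sox2, Esrrb, Tbx3, Tcl1 or a transcript labelled Mm343880. One more course was given retinoic acid at 5 µM with no leukaemia inhibitory factor (LIF), and its labels mention neither a vector nor a sort. Cells with the empty vector were what all of these were set against. In the difference of the retinoic acid course from the empty vector, the drug, the lack of LIF and any lack of vector or sort cannot be told apart. LIF at 1000 units/ml was present for hairpin and empty vector cells, which were sorted daily for GFP, and their day 0 fell 48 hours past transduction. Sampling ended on day 6 for Mm343880 and for retinoic acid, giving 7 samples each, and on day 7 elsewhere, giving 8 samples each. A course had 1 sample a day, which made 70 RNA samples and 140 arrays. No course was repeated, so errors measure how samples scatter about their fitted day curves, and some of that scatter may be technical. A hairpin course is 1 vector population, and days in the retinoic acid course count from the addition of the drug, so they do not match the hairpin days in meaning.

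Annexins are calcium-dependent proteins that bind acidic phospholipids on the inner face of membranes. S100 proteins are small EF-hand calcium binders, most of which work as dimers. The families are linked: a dimer of S100a10 joins a pair of Anxa2 molecules, S100a11 binds Anxa1, and S100a6 binds several annexins and Cacybp. Annexins act in membrane repair, endocytosis and the attachment of the actin cortex, and Anxa1 also signals through formyl peptide receptors.

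Promoter windows of 7 of the 9 genes were found in the RefSeq table for GRCm38.p6 (Anxa1, Anxa2, Anxa4, Anxa5, S100a4, S100a6 and S100a11; Anxa3 and S100a10 are named only). The windows below belong to Anxa1, Anxa5 and S100a6, which were called higher than the empty vector in all 7 hairpin courses, and to S100a4. S100a4 lies next to S100a5 and then S100a6 in the S100 gene cluster, and its only probe set was too dim to be tested. Capitals mark matches, on either strand, to 4 motifs that were chosen after the windows had been looked at. They were the AP-1 motif, spelled TGANTCA, and the motif of the TEAD family of factors, spelled GGAATG. The other two were the GC box, which reads GGGCGG, and the TATA box, which reads TATAAA.
Anxa1 (GRCm38.p6 chr19:20390622-20390921, minus strand): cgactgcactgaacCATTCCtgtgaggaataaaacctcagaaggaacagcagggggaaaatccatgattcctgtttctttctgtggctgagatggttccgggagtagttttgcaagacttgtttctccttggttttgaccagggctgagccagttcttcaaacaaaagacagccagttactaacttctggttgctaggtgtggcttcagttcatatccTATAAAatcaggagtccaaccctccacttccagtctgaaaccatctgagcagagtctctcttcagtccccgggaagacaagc
Anxa5 (GRCm38.p6 chr3:36475838-36476137, minus strand): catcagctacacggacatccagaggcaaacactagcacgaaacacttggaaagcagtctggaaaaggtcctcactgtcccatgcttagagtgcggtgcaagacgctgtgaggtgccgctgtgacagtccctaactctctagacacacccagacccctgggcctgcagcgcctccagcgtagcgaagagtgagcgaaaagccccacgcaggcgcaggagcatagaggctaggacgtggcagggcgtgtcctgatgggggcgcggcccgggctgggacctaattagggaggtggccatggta
S100a6 (GRCm38.p6 chr3:90612644-90612943, plus strand): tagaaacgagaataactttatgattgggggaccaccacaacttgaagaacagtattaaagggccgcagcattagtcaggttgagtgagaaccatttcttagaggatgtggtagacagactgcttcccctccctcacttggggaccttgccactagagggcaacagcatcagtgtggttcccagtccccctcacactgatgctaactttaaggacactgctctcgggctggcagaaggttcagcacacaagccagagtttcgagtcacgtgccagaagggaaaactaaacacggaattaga
S100a4 (GRCm38.p6 chr3:90603520-90603819, plus strand): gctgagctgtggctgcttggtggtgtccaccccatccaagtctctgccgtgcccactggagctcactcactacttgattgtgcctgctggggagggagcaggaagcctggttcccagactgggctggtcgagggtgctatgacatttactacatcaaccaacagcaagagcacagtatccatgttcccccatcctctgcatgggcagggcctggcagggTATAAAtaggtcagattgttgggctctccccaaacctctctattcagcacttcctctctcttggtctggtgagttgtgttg
The Anxa1 window held a TATAAA at -32 from the start site and a GGAATG on the opposite strand at -236. The S100a4 window held a TATAAA at -31. None of the 4 motifs was in the Anxa5 or the S100a6 window. Among all 32851 RefSeq windows of the same length, 13.6% held TATAAA, 14.7% GGAATG, 35.7% GGGCGG and 7.81% TGANTCA. The Anxa2 window held 1 TGANTCA, 1 TATAAA and 3 GGGCGG, and these matches describe letters only. No motif overlapped another in the 4 windows shown.

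Signals are linear array intensities and each is read only against the same probe set in other samples, since probe sets differ in brightness. The late difference is the fitted log2(signal + pseudocount) of a course averaged over days 4, 5 and 6 minus that of the empty vector course. A probe set was called where the adjusted p of the limma fit over all 32792 probe sets was below 0.05. Of the 15 members 12 passed the filter on low signal, which asked for a signal above the table median on at least 3 of 70 arrays, and they belong to 7 genes. The 3 that did not pass were the second Anxa1 probe set (1444016_at), an Anxa2 probe set (1437691_at) and the only S100a4 probe set (1424542_at). Of the 12 that passed, Anxa2 1437692_x_at was above the table median on the fewest arrays, 19. Just outside the filter lay 1444016_at and 1424542_at, above it on 1 array each.

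Embryonic stem cell markers, summed over 10 genes, stood on days 4 to 6 at 1279 to 1789 with retinoic acid and at 21548 to 55692 in the hairpin courses, against 61971 to 68919 with the empty vector. All 6 hairpins whose target gene could be read lowered it on 8 of 8 days, by 3.63-fold to 11.2-fold on average. The samples farthest from their curves were day 6 of the Sox2, day 5 of the Nanog and day 4 of the Mm343880 course, and leaving out these 3 together ended 1 call of a member, given below. The median late difference over all probe sets was between -0.10 and 0.06 in the hairpin courses and 0.16 with retinoic acid, where quantile normalization moved it to -0.11.

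**Figure D1:**
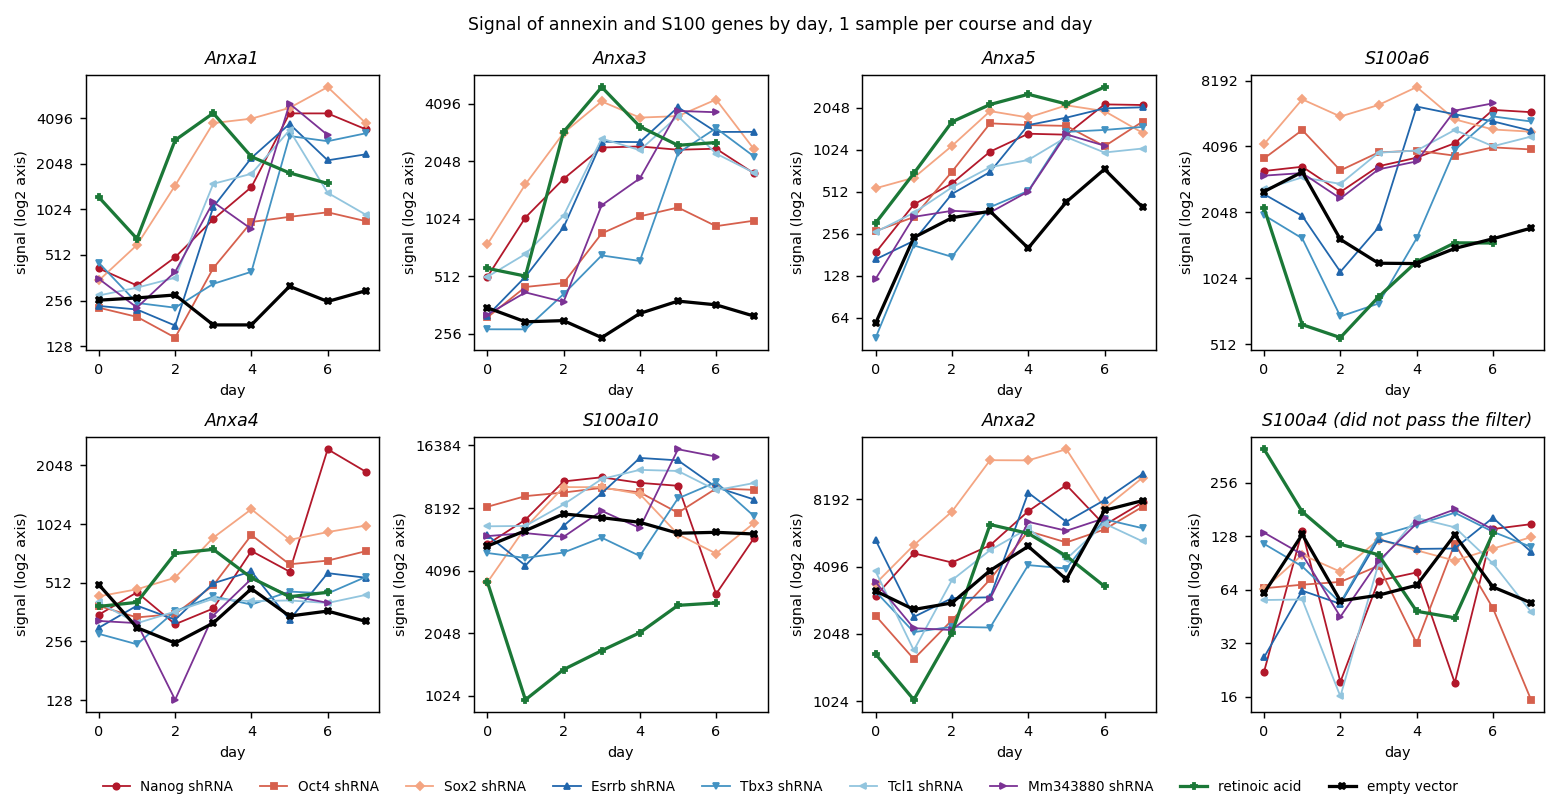
Signal on a log2 axis by day for the brightest probe set of each gene, with 1 point per sample and 1 line per course (hairpin courses in reds and orange, blues and purple, retinoic acid in green, empty vector in black). Anxa1, Anxa3 and Anxa5 climbed above the empty vector line in every other course. S100a6 stood above that line on the late days of the hairpin courses, and S100a10 with retinoic acid ran below it on all 7 days.

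Anxa1, Anxa3, Anxa5 and S100a6 were called higher in all 7 hairpin courses, and the first 3 of these also with retinoic acid. Anxa4 was called higher on all 3 of its probe sets with the Nanog, Oct4 and Sox2 hairpins. S100a10, on its brightest probe set, was called higher with the Esrrb, Tcl1 and Mm343880 hairpins and lower with retinoic acid, where its dim probe set was called higher. Anxa2 was called higher only with the Sox2 hairpin. No member was called lower in a hairpin course. In these bulk samples fewer cells of a type and less RNA per cell cannot be told apart. Counts of called members stand here beside the share of all probe sets called, and nothing is read from that pairing because the genes had been selected on these arrays. With the Nanog hairpin 7 of 12 were higher, where 8.92% of all probe sets were higher and 6.53% lower. With the Oct4 hairpin 7 of 12 were higher, against 4.58% higher and 6.81% lower over all probe sets. The Sox2 hairpin gave 8 of 12, against 8.66% and 7.83%. For the Esrrb hairpin these numbers were 7 of 12, 5.3% and 3.19%, and for the Tbx3 hairpin 4 of 12, 4.59% and 3.4%. The Tcl1 hairpin had 5 of 12, against 3.52% higher and 2.88% lower over all probe sets, and the Mm343880 hairpin 6 of 12, against 6.34% and 5.23%. With retinoic acid 4 of 12 were higher and 1 lower, where 27.2% of all probe sets were higher and 16.2% lower.

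**Figure D2:**
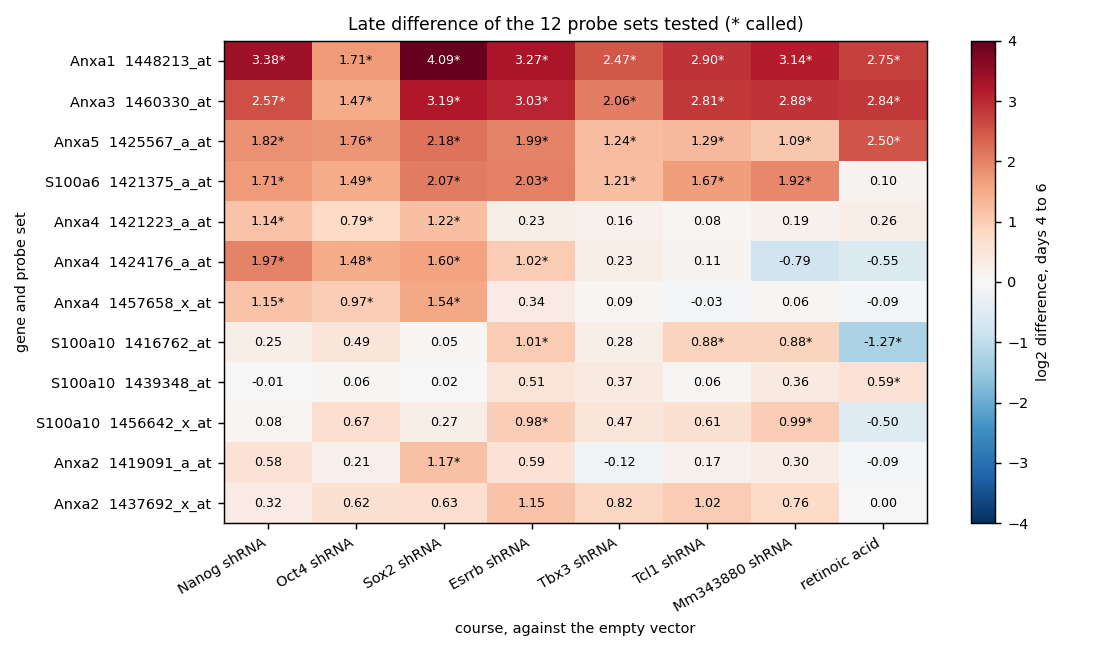
Late log2 difference from the empty vector (days 4 to 6) for the 12 probe sets tested, in rows, and the 8 courses, in columns; red is higher and blue lower, and an asterisk marks a call. Anxa1 in the Sox2 course had the largest value of the grid, 4.09, and S100a10 1416762_at with retinoic acid the lowest, -1.27.

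Among the annexins, Anxa1 had the largest late log2 difference in 6 of the 7 hairpin courses, and in the Oct4 course Anxa5 was slightly above it (1.76 against 1.71). On days 4, 5 and 6 its probe set 1448213_at read 4067, 4791 and 6575 in the Sox2 course, against 177, 318 and 252 with the empty vector. In the Nanog course it read 1437, 4407 and 4405 on those days, and in the Esrrb course 2240, 3752 and 2159. All these readings lay above every reading of the empty vector course, whose 8 days ran from 177 to 318. The late difference was 4.09 ± 0.38 (SE) with the Sox2 hairpin (17.1-fold), 3.38 ± 0.38 with the Nanog hairpin (10.4-fold) and 3.27 ± 0.38 with the Esrrb hairpin (9.68-fold).

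In the Mm343880 course Anxa1 read 760, 5107 and 3169 on days 4, 5 and 6, in the Tcl1 course 1759, 3411 and 1318, and in the Tbx3 course 397, 3124 and 2886. These 3 courses showed their highest or near-highest reading on day 5, and in the Tbx3 course day 4 was still near the level of days 0 to 3, which ran from 230 to 454. The Oct4 course stood lowest among the hairpins, with 845, 914 and 980, again above all 8 empty vector readings. Late differences were 3.14 ± 0.38 with the Mm343880 hairpin, 2.90 ± 0.38 with Tcl1, 2.47 ± 0.38 with Tbx3 and 1.71 ± 0.38 with Oct4. Without day 6 of the Mm343880 course its value was 4.38. In the Oct4 course the call did not hold where the curve was replaced by a plain mean of the window (adjusted p = 0.0665).

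The Anxa1 signal reached a lasting 2-fold excess over the empty vector, kept on every later day, on day 1 in the Sox2 course. It did so on day 3 in the Nanog, Oct4, Esrrb, Tcl1 and Mm343880 courses and on day 4 in the Tbx3 course. The second Anxa1 probe set, 1444016_at on the B array, read between 4.7 and 31.6 in all samples except day 5 of the Mm343880 course, where it read 106. It did not follow the first and was not tested.

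In the retinoic acid course Anxa1 was already high on day 0. Days there count from the addition of the drug, and a difference between the cells before it was not tested. Its readings from day 0 to day 6 were 1232, 655, 2933, 4420, 2280, 1782 and 1519, with the highest on day 3. The empty vector read 258 on day 0. The late difference was 2.75 ± 0.38 (6.72-fold), and days 4 to 6 with retinoic acid lay above all empty vector days. The change between early (days 0 and 1) and late days within the retinoic acid course was not called for Anxa1, at a log2 change of 0.79. Without day 0 it was 2.88 and called (adjusted p = 0.00493), and without day 1 or day 6 it was 0.19 or 0.22.

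Anxa3, a phospholipid-binding annexin known from endothelial and myeloid cells, departed from the empty vector early in the Sox2 course. In the Sox2 course its probe set 1460330_at read 750 on day 0, 1552 on day 1 and 2883 on day 2, against 350, 295 and 300 with the empty vector. A lasting 2-fold excess held from day 0 in the Sox2 course, day 1 in the Nanog and Tcl1 courses, day 2 in the Esrrb and retinoic acid courses, day 3 in the Oct4 and Mm343880 courses and day 5 in the Tbx3 course. The empty vector stayed between 244 and 379 on all 8 days, and on days 4 to 6 every other course was above that range.

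Averaged over days 4, 5 and 6, Anxa3 stood at 3773 ± 472 in the Sox2 course, 3145 ± 704 in the Esrrb course and 3043 ± 1193 in the Mm343880 course, against 356 ± 26.8 with the empty vector (SD over 3 days). It stood at 2708 ± 716 in the Tcl1 course, 2396 ± 48.7 in the Nanog course and 1976 ± 1244 in the Tbx3 course. The Oct4 course was again lowest among the hairpins, at 1054 ± 118. Late differences ran from 1.47 ± 0.26 (Oct4) to 3.19 ± 0.26 (Sox2), with 3.03 for Esrrb, 2.88 for Mm343880, 2.81 for Tcl1, 2.57 for Nanog and 2.06 for Tbx3. Values for Esrrb, Mm343880, Tcl1 and Nanog lay within 2 standard errors of their neighbours in this order.

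With retinoic acid Anxa3 read 563, 513, 2920, 5017, 3115, 2484 and 2569 from day 0 to day 6. Like Anxa1 it had its highest reading on day 3. The late difference was 2.84 ± 0.26, and 2.24 without day 6 of that course. Within the course the late days were 4.10-fold above the early days.

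Anxa5, which binds phosphatidylserine and is widely used to stain dying cells, read lower on day 0 than on each of days 4 to 6 in every course, including the empty vector. Probe set 1425567_a_at read 58.5, 241, 333, 371, 202, 433, 744 and 396 from day 0 to day 7 with the empty vector. In the Sox2 course it read 543 on day 0 and between 1748 and 2136 on days 4 to 6. In the Esrrb course it read 168 on day 0 and 1543, 1743 and 2033 on days 4, 5 and 6. All late readings in these courses exceeded those of the empty vector.

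The largest late Anxa5 difference was with retinoic acid, 2.50 ± 0.26, where days 4, 5 and 6 read 2566, 2185 and 2891. Among hairpins the values were 2.18 for Sox2, 1.99 for Esrrb, 1.82 for Nanog, 1.76 for Oct4, 1.29 for Tcl1, 1.24 for Tbx3 and 1.09 for Mm343880, each ± 0.26. Late days of the Tbx3 and Mm343880 courses overlapped with those of the empty vector, since day 4 read 519 and 514 there and day 6 of the empty vector read 744. The Mm343880 call was lost without day 5 of that course (difference 0.70, adjusted p = 0.146) and without day 4 of the empty vector (0.76, adjusted p = 0.0609), and the value was 2.18 without day 6. In a fit of only the courses compared it was lost as well (adjusted p = 0.0761). With plain means of the window in place of the curve the Anxa5 calls for Tbx3 (adjusted p = 0.0791), Tcl1 (adjusted p = 0.0863) and Mm343880 (adjusted p = 0.117) were lost.

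Within the empty vector course 1 of the 12 members was higher late than early, where 0.253% of all probe sets were higher, and 1 was lower, where 0.156% were. Those shares rest on 134 calls, which were 6 without day 0 and 275 without day 5 of the empty vector. The higher one was Anxa5 (2.45-fold) and the lower one S100a6 (1.90-fold). The Anxa5 value rested on day 0: without it the log2 change was 0.56 in place of 1.30, and the call was lost (adjusted p = 0.999). It was also lost without day 5 (1.16, adjusted p = 0.0819) or day 6 (1.03, adjusted p = 0.148). The S100a6 call was lost without any single day of the 8, with log2 changes of -0.66 if day 1 was left out (adjusted p = 0.219) and -1.75 if day 0 was (adjusted p = 0.0960), in place of -0.93.

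Anxa4, an annexin of secretory epithelia, separated the hairpins. Its 3 probe sets, 1421223_a_at and 1424176_a_at on A and 1457658_x_at on B, were all called higher with the Nanog, Oct4 and Sox2 hairpins. On 1424176_a_at the late differences were 1.97 ± 0.28 with Nanog, 1.48 ± 0.28 with Oct4 and 1.60 ± 0.28 with Sox2. On 1421223_a_at they were 1.14 ± 0.24, 0.79 ± 0.24 and 1.22 ± 0.24 in the same order, and on 1457658_x_at 1.15 ± 0.28, 0.97 ± 0.28 and 1.54 ± 0.28. For 1421223_a_at and 1457658_x_at the Oct4 call was lost without day 4 of the Oct4 course (adjusted p = 0.165 and 0.0767), and for 1421223_a_at also without day 5 (adjusted p = 0.212) or day 6 (adjusted p = 0.0531) of the empty vector. For 1457658_x_at leaving out day 4 of the empty vector (adjusted p = 0.108) or day 6 of the Oct4 course (adjusted p = 0.0557) also ended it. Plain means of the window ended both Oct4 calls (adjusted p = 0.0777 and 0.0558). The Nanog call on 1457658_x_at was lost in a fit of only the courses compared (adjusted p = 0.0577), and its late days overlapped with the empty vector, with 117 on day 5 against 124 on day 6 of the vector.

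The Nanog course had the brightest Anxa4 samples. Probe set 1421223_a_at read 745, 584, 2479 and 1900 on its days 4 to 7, against 477, 345, 366 and 324 with the empty vector. In the Sox2 course it read 1220, 850, 931 and 1006 on those days, and in the Oct4 course 899, 637, 665 and 743. All readings of days 4 to 6 in these 3 courses were above those of the empty vector. In the Esrrb, Tbx3, Tcl1, Mm343880 and retinoic acid courses this probe set overlapped with the empty vector, with differences between 0.08 and 0.26.

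The probe sets of Anxa4 did not tell the same story in every course. With the Esrrb hairpin 1424176_a_at was called higher (1.02 ± 0.28) while the others were at 0.23 and 0.34 and not called. That call was lost without day 4 of the Esrrb course (adjusted p = 0.0647) and without day 5 of the empty vector (adjusted p = 0.257). Plain means of the window ended it too (adjusted p = 0.0948). With the Mm343880 hairpin 1424176_a_at was at -0.79 ± 0.28, the others at 0.19 and 0.06, and none was called. With retinoic acid the 3 probe sets were at -0.55, 0.26 and -0.09, none called. Across all 70 samples the 3 probe sets correlated at r = 0.77 to 0.83, a description over serial days of the same courses.

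Set directly against each other, without the empty vector, the mean late level of the Nanog, Oct4 and Sox2 courses exceeded that of the Esrrb, Tbx3 and Tcl1 courses on all 3 Anxa4 probe sets, by 2.34-fold, 2.13-fold and 1.85-fold. In this comparison 5 of 12 members were higher, where 12.6% of all probe sets were higher, and 1 was lower, where 12.2% were. The others higher were Anxa2 1419091_a_at (1.36-fold) and Anxa5 (1.33-fold), and S100a10 1416762_at was lower (log2 difference -0.46 ± 0.13). The S100a10 call was lost with a spline of 2 degrees of freedom (-0.18, adjusted p = 0.306) and with plain means of the window (-0.47, adjusted p = 0.0923). The Anxa2 call ended without day 4 or 5 of the Nanog course, day 4 of Oct4, day 3, 4 or 5 of Sox2, day 5 or 6 of Esrrb, day 5 of Tbx3 or day 5 of Tcl1, with log2 differences of 0.34 to 0.44. The Anxa5 call ended without day 4 or 6 of the Nanog course, day 4 or 5 of Oct4, day 5 or 6 of Sox2, day 5 of Esrrb, day 4 of Tbx3 or day 4 or 6 of Tcl1, with 0.35 to 0.41. Plain means of the window ended both calls (adjusted p = 0.156 for Anxa2 and 0.279 for Anxa5). That of Anxa2 also ended with no filter (adjusted p = 0.0556) or without the intensity trend (adjusted p = 0.0541). That of Anxa5 also ended with a pseudocount of 1 (adjusted p = 0.0678) or with day as a replicate block (adjusted p = 0.0659). The Anxa2 call was also the one that ended without the 3 samples farthest from their curves. Anxa1, Anxa3 and S100a6 were not called here, at 0.18, -0.22 and 0.12.

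**Figure D3:**
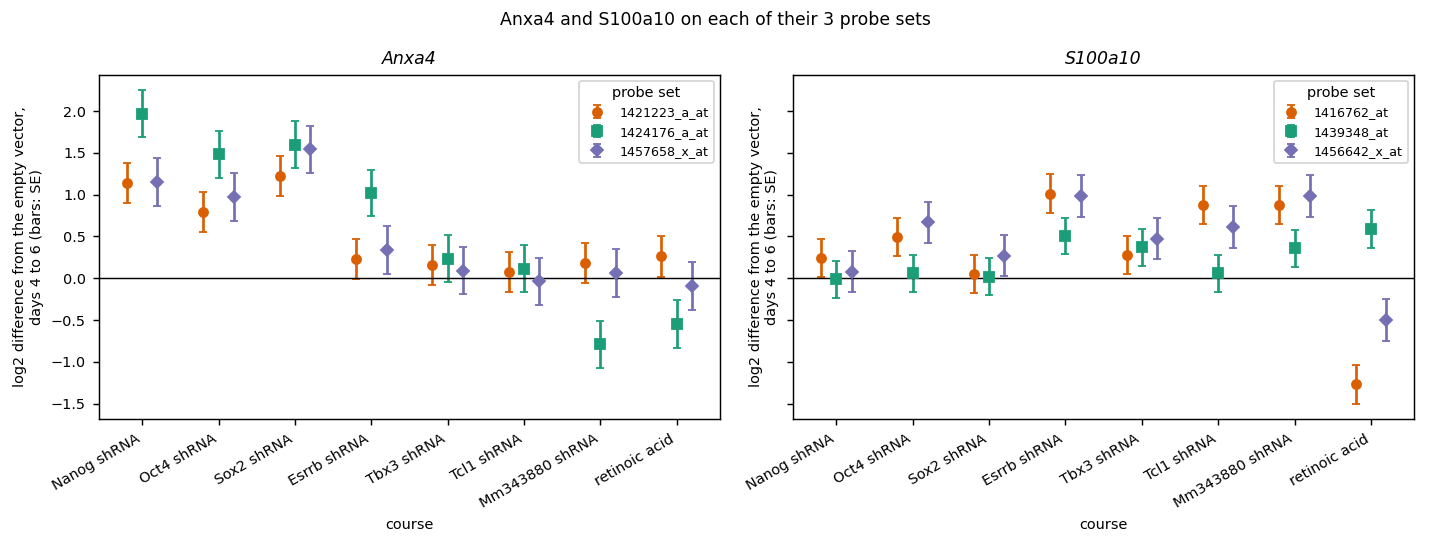
Late log2 difference from the empty vector (days 4 to 6, points) with its SE (bars) for the 3 probe sets of Anxa4, left, and of S100a10, right, in the 7 hairpin courses and retinoic acid. The Anxa4 points lie between 0.79 and 1.97 in the first 3 courses, and with retinoic acid the S100a10 points split between -1.27 and 0.59.

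Anxa2, the annexin that pairs with S100a10 and binds plasminogen and its activators at the cell surface, was called in a single course. On 1419091_a_at the empty vector read 3186, 2634, 2817, 3935, 5047, 3593, 7313 and 8086 from day 0 to day 7. In the Sox2 course it read 3440, 5110, 7224, 12264, 12241, 13727, 7465 and 10242, above the empty vector on each of the 8 days. The late difference there was 1.17 ± 0.28 (2.24-fold), and the call was lost without day 5 of the empty vector (difference 0.83, adjusted p = 0.0925). Elsewhere the values lay between -0.12 (Tbx3) and 0.59 (Esrrb), late days overlapped with the empty vector, and none was called.

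With retinoic acid Anxa2 started low, at 1663 and 1039 on days 0 and 1, then read 2071, 6318, 5768, 4568 and 3344. Its late difference from the empty vector was -0.09 ± 0.28, while within the course late days were 3.18-fold above early days. In that within-course comparison 3 of 12 members were higher, namely Anxa2, Anxa3 and Anxa5, where 15% of all probe sets were higher and 10.3% lower. Without day 6 the Anxa5 call (4.76-fold) held, while Anxa2 stood at 0.83 and Anxa3 at 1.44, not called. Without day 0 the log2 changes were 3.04 for Anxa2 and 3.92 for Anxa3, in place of 1.67 and 2.04. The second tested Anxa2 probe set, 1437692_x_at, read between 12.5 and 476 with large jumps from day to day, and was called in no course.

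Among the S100 genes, S100a6 (calcyclin, expressed in many proliferating and mesenchymal cells) was called higher in each hairpin course. Averaged over days 4, 5 and 6 its probe set 1421375_a_at stood at 6000 ± 1459 in the Sox2 course, 5773 ± 450 in the Esrrb course and 5308 ± 1583 in the Mm343880 course, against 1382 ± 179 with the empty vector (SD over 3 days). The Nanog course stood at 4633 ± 1238, the Tcl1 course at 4301 ± 504, the Oct4 course at 3899 ± 171 and the Tbx3 course at 3710 ± 2042. All late readings in these 7 courses were above the late empty vector readings, the closest being 1558 on day 4 of the Tbx3 course against 1551 on day 6 of the empty vector. Late differences were 2.07 (Sox2), 2.03 (Esrrb), 1.92 (Mm343880), 1.71 (Nanog), 1.67 (Tcl1), 1.49 (Oct4) and 1.21 (Tbx3), each ± 0.20.

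The path of S100a6 differed between courses. With the empty vector it read 2549 and 3130 on days 0 and 1 and between 1195 and 1735 from day 2 on. In the Oct4 course it stayed between 3184 and 4868 on all 8 days, so that its late mean was below its mean over days 0 and 1, 4240. In the Esrrb course it dipped to 1096 on day 2 and read 6236 on day 4, and in the Tbx3 course it dipped to 685 on day 2 and read 3953 on day 5. A late difference from the empty vector therefore holds both a decline in the vector course and, in some hairpin courses, a climb.

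With retinoic acid S100a6 read 2138, 628, 548, 841, 1218, 1485 and 1483 from day 0 to day 6. The late difference was 0.10 ± 0.20 and not called, and late days overlapped with the empty vector.

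S100a10 (p11), the partner of Anxa2, had bright and steady readings with the empty vector, between 5370 and 7673 over 8 days on 1416762_at. In the Esrrb course that probe set read 14268, 13889 and 10312 on days 4, 5 and 6, in the Tcl1 course 12503, 12352 and 9980, and in the Mm343880 course 6567, 15712 and 14478. In the first 2 of these courses all 3 late days were above the empty vector. The late differences were 1.01 ± 0.23, 0.88 ± 0.23 and 0.88 ± 0.23 in this order. With day as a replicate block the Tcl1 (adjusted p = 0.0571) and Mm343880 calls (adjusted p = 0.0901) were lost, and with plain means of the window all 3 were (adjusted p = 0.0981 to 0.193). The Mm343880 call was lost without day 5 of that course (0.59, adjusted p = 0.186), the value without day 6 was 1.57, and the Tcl1 call was lost without day 5 of either the Tcl1 (adjusted p = 0.0771) or the empty vector course (adjusted p = 0.0599).

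In the Nanog course S100a10 climbed to 11517 on day 3 and then read 10825, 10481, 3162 and 5889 on days 4 to 7. In the Sox2 course it read 10328 on day 2 and 4947 on day 6. These courses crossed the empty vector line, and their late differences were 0.25 and 0.05. In the Oct4 course all 8 readings, from 7774 to 10239, were above the empty vector of the same day, with a late difference of 0.49 ± 0.23 that was not called. In the Tbx3 course it read 4817, 9110 and 10908 on days 4, 5 and 6, with 0.28 ± 0.23, not called.

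With retinoic acid S100a10 stood lower from the start. It read 3622, 979, 1369, 1687, 2058, 2786 and 2862 on days 0 to 6, below the empty vector on each of the 7 days, and its late difference was -1.27 ± 0.23, 2.41-fold lower. A second probe set on A, 1456642_x_at, was also below the empty vector on 7 of 7 days, at -0.50 ± 0.25, not called. It followed the first at r = 0.92 over the 70 samples, and was called higher with the Esrrb (0.98 ± 0.25) and Mm343880 hairpins (0.99 ± 0.25). Both calls were lost without day 5 of the empty vector (0.84 each), the Mm343880 call also without day 5 of its own course (0.59), and without its day 6 that value was 1.89. With day as a replicate block both were lost too (adjusted p = 0.0550 for Esrrb and 0.0801 for Mm343880), as they were with plain means of the window. The probe set on B, 1439348_at, was dim, between 112 and 285, and went the other way with retinoic acid (0.59 ± 0.22, called). That call was lost without day 4 (0.59), day 5 (0.64) or day 6 (0.43) of the retinoic acid course or day 5 of the empty vector (0.47), and fell short after quantile normalization (0.27). Its correlation with 1416762_at over the 70 samples was 0.01.

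S100a4 (metastasin, a marker of fibroblasts and motile cells) was above the table median on only 1 array. Its probe set 1424542_at read between 15.4 and 181 in the hairpin courses, against 54 to 131 with the empty vector. The only brighter sample was day 0 of the retinoic acid course, at 394, followed by 175, 115, 101, 48.4, 44.5 and 133. All late days of the Tbx3 course (1.33-fold to 2.19-fold the same empty vector day) and the Mm343880 course (1.39-fold to 2.22-fold) were above those of the empty vector. Late days of the other courses overlapped with it. S100a4 did not pass the filter and was not tested, although S100a6, with S100a5 between them in the same gene cluster, was among the called members.

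The members resembled one another to differing degrees over the 70 samples, which share courses and serial days. Anxa1 and Anxa3 correlated at r = 0.90, Anxa3 and Anxa5 at 0.84, Anxa1 and Anxa5 at 0.80, and S100a6 and S100a10 at 0.66. Anxa1 and S100a10 correlated at only 0.08, and Anxa2 with its partner S100a10 at 0.40. By the same measure the other genes most like Anxa1 were Ankrd1, a cardiac and muscle ankyrin repeat protein (0.89), Ahnak (0.87) and the cytokine Csf1 (0.86). Those most like Anxa3 were the actin-binding genes Tpm1 (0.93) and Tagln (0.90) and the small GTPase Rras2 (0.89). Anxa5 was closest to the keratin Krt18 (0.91), the myelin protein Pmp22 (0.90) and the actin-severing protein Gsn (0.89). For Anxa4 they were the phosphatase Dusp8 (0.87), the placental gene Plac1 (0.85) and the sorting nexin Snx9 (0.84). Less close matches were found for S100a6 (Hspb2 0.79, Capg 0.74 and Pdgfa 0.73), S100a10 (Niban2 0.81, Mrps18a 0.79 and Raly 0.78) and Anxa2 (Litaf 0.78, Itgb5 0.78 and Lmna 0.77).

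The other annexins and S100 genes gave few calls. These lists and the partners below were chosen with earlier results of these data known. Their adjusted p values are therefore a description, not evidence for the genes. Of 7 other annexins 3 were tested, namely Anxa6, Anxa7 and Anxa8. With the Nanog hairpin Anxa8 averaged 240 ± 50.3 on days 4 to 6, against 104 ± 85.6 with the empty vector (log2 difference 0.99 ± 0.30, limma adjusted p = 0.0176). Anxa7, whose product was first known as synexin, fell with retinoic acid to 1093 ± 101, against 4030 ± 854 with the empty vector (-1.77 ± 0.14, limma adjusted p = 2.69e-14). No other late difference of these 3 genes was called, and Anxa7 also rose within the empty vector course (1.62-fold, limma adjusted p = 0.0226). The medians of the 3 genes ran from -0.05 to 0.42 in the hairpin courses, where the median of all probe sets ran from -0.10 to 0.06.

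Of 12 other S100 genes 4 were tested, namely S100a1, S100a5, S100a13 and S100a16. S100a13, which takes part in the release of growth factors without a signal peptide, averaged 1041 ± 262 with the Nanog hairpin and 969 ± 19.8 with the Oct4 hairpin, against 468 ± 40.0 with the empty vector. Both differences were called (1.05 ± 0.17, limma adjusted p = 1.07e-05, and 0.93 ± 0.17, limma adjusted p = 8.29e-05). With the Sox2 hairpin it was at 0.43 ± 0.17 and did not pass (limma adjusted p = 0.0737). Over the 3 courses together it exceeded the Esrrb, Tbx3 and Tcl1 courses by 1.82-fold (limma adjusted p = 2.44e-09). With retinoic acid S100a13 fell to 263 ± 22.9 (-0.70 ± 0.17, limma adjusted p = 0.000726) and S100a16 to 553 ± 162, against 824 ± 58.1 with the empty vector (-0.57 ± 0.18, limma adjusted p = 0.00773). S100a16 rose within the empty vector course (1.85-fold, limma adjusted p = 0.0240), and no hairpin course gave a call for S100a1, S100a5 or S100a16.

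Partners and effectors of these proteins formed a list of 16 genes, of which 12 were tested. For these genes, rose and fell mean a late level above or below that of the empty vector, not a change within a course. Myh9, the heavy chain of nonmuscle myosin and a target of S100a4, rose in all 8 courses, by 0.72 ± 0.16 (Sox2) to 1.33 ± 0.16 (Tbx3) on the log2 scale, with limma adjusted p between 7.97e-09 and 0.000639. On days 4 to 6 it averaged 8068 ± 1282 in the Tbx3 course and 7393 ± 1694 with retinoic acid, against 3022 ± 261 with the empty vector. Ahnak, a giant scaffold bound by the Anxa2 and S100a10 complex, rose in 6 of 8 courses, most in the Sox2 course (2122 ± 810, against 438 ± 93.7 with the empty vector; 2.06 ± 0.32, limma adjusted p = 4.71e-06). It did not pass in the Tbx3 and Tcl1 courses, at 0.70 and 0.27. Capn2, the large subunit of m-calpain, rose in 6 of 8 courses, by 0.78 ± 0.16 (Tcl1) to 1.57 ± 0.16 (Esrrb; limma adjusted p = 2.29e-09), and was at 0.27 and 0.11 in the Nanog and Oct4 courses, not called.

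Dysf (dysferlin, which works with annexins in membrane repair) rose with the Nanog (1.19 ± 0.32), Oct4 (1.63 ± 0.32) and Sox2 hairpins (1.33 ± 0.32), with limma adjusted p of 0.00584, 0.000202 and 0.00176. These 3 courses together exceeded the Esrrb, Tbx3 and Tcl1 courses by 1.74-fold (limma adjusted p = 0.000798). The urokinase receptor Plaur rose with the Sox2 (1.46 ± 0.22, limma adjusted p = 2.42e-06), Tcl1 (0.95 ± 0.22, limma adjusted p = 0.00488) and Esrrb hairpins (0.74 ± 0.22, limma adjusted p = 0.0274). Plat, tissue plasminogen activator, rose 12.5-fold with retinoic acid, to 2686 ± 352, against 170 ± 28.8 with the empty vector (limma adjusted p = 1.51e-15). In that course 4 partners were higher and 3 lower, and the lower ones are not named here. Cacybp, the calcyclin-binding protein, fell with the Oct4 (-0.83 ± 0.19, limma adjusted p = 0.00124) and Sox2 hairpins (-0.94 ± 0.19, limma adjusted p = 0.000171). The formyl peptide receptor Fpr2 was called in no course.

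In numbers, 5 of the 12 partners were higher and 0 lower with the Nanog hairpin, 3 and 1 with Oct4, 5 and 2 with Sox2, 4 and 0 with Esrrb, 2 and 0 with Tbx3, 4 and 1 with Tcl1, 3 and 0 with Mm343880, and 4 and 3 with retinoic acid. Over all probe sets 3.52% to 8.92% were higher and 2.88% to 7.83% lower in the hairpin courses. With retinoic acid these shares were 27.2% and 16.2%, and nothing is read from the pairing. The median late difference of the partners ran from 0.16 to 0.52 in the hairpin courses and was -0.11 with retinoic acid, where the median of all probe sets was 0.16. All 8 courses share the empty vector samples, so calls in several courses are not independent of each other.

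**Figure D4:**
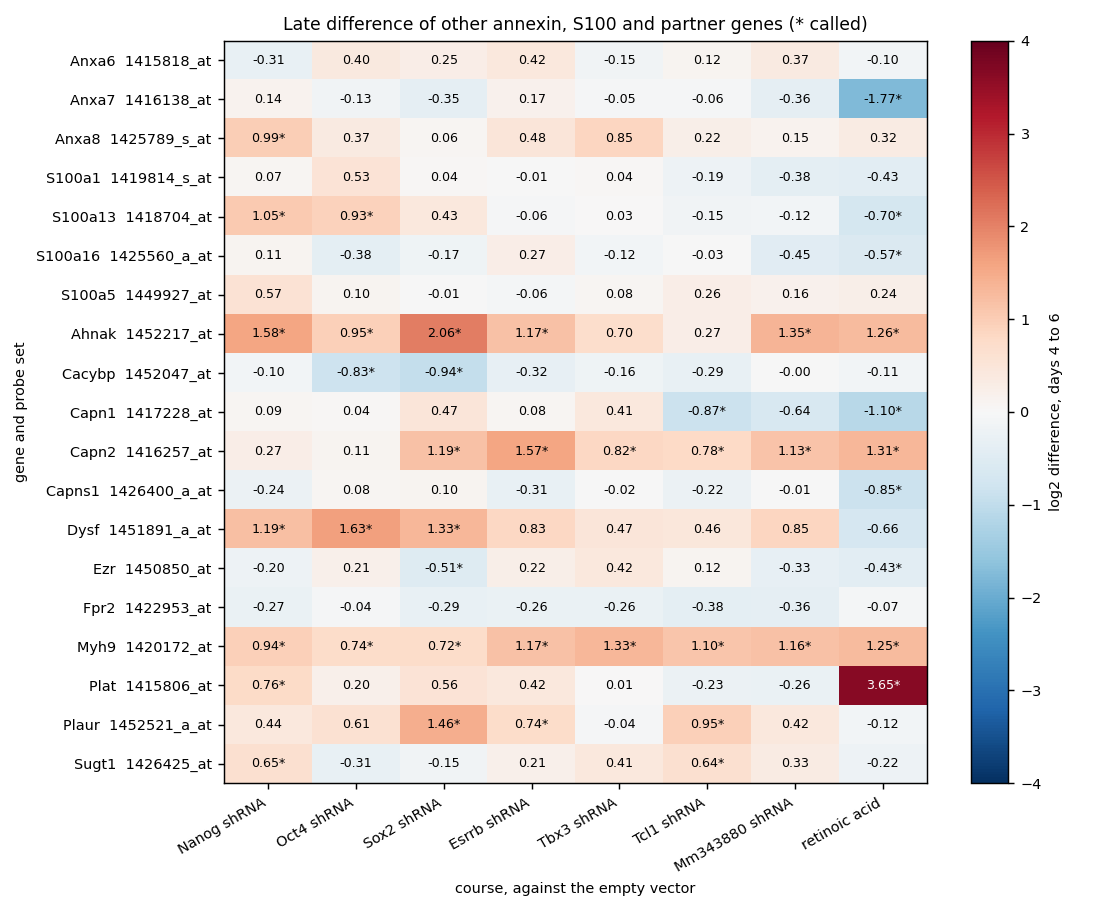
Late log2 difference from the empty vector (days 4 to 6) for the 3 other annexins, 4 other S100 genes and 12 partner genes tested, in rows, and the 8 courses, in columns; an asterisk marks a call. The Myh9 row is called in all 8 columns, and the Plat value with retinoic acid, 3.65, is the highest of the grid.

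Markers of other cell types moved in the same courses. In the hairpin courses 3.52% to 8.92% of all probe sets were higher and 2.88% to 7.83% lower. With retinoic acid these shares were 27.2% and 16.2%. The marker lists were chosen with earlier results of these data known. Nothing is therefore read from the counts of called markers here and in the next paragraph. Over 10 trophectoderm genes the summed signal on days 4 to 6 was 39870 to 90869 in the Nanog course, 53411 to 65551 in the Oct4 course and 56661 to 72936 in the Sox2 course, against 3852 to 7382 with the empty vector. It was 17404 to 51283 in the Esrrb course, 6360 to 37050 in the Tbx3 course, 7672 to 20359 in the Tcl1 course, 7553 to 35208 in the Mm343880 course and 12435 to 22381 with retinoic acid. Of 9 trophectoderm genes tested 9 were higher with the Nanog hairpin, 9 with Oct4, 8 with Sox2, 6 with Esrrb, 4 with Tbx3 and 5 each with Tcl1, Mm343880 and retinoic acid. With retinoic acid 3 were lower, the transcription factor genes Ascl2 (-1.77), Cdx2 (-1.25) and Eomes (-0.80), while the 5 higher ones were Krt7, Krt8, Krt18, Krt19 and Gata3. In the Tbx3 course the higher ones were Krt7, Krt8, Krt18 and Krt19, and Ascl2 was lower (-1.10). Cdx2 (-0.07), Gata3 (0.04), Eomes (-0.07) and Hand1 (0.11) were not called there, so the Tbx3 sum does not stand for them. With the Tcl1 and Mm343880 hairpins the higher ones were the same keratins and Cdx2. Krt18, the gene most like Anxa5, belongs to this list, and Elf5 did not pass the filter.

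Over 10 fibroblast genes the late sum was 18759 to 27074 with retinoic acid and 1409 to 6485 in the hairpin courses, against 1831 to 2103 with the empty vector; Lum did not pass the filter. Of 9 fibroblast genes tested 8 were higher and 1 lower with retinoic acid, and between 0 and 3 were higher in the hairpin courses. Thy1 was the lower one with retinoic acid (-0.80) and was also lower in the Nanog, Oct4, Sox2, Esrrb and Tbx3 courses. Over 10 extraembryonic endoderm genes the late sum was 32836 to 43799 with retinoic acid and 7610 to 19023 in the hairpin courses, against 5761 to 7869 with the empty vector; Afp did not pass. Of 9 such genes tested 5 were higher and 0 lower with retinoic acid, and 6 and 0 with the Nanog hairpin. The median over the list was -0.27 in the Oct4, -0.34 in the Esrrb and -0.38 in the Tbx3 course. Lama1 was lower in the Oct4, Sox2 and Esrrb courses and Gata6 in the Esrrb and Tbx3 courses, so these sums, which add probe sets of differing brightness, do not stand for every gene. No gene of these lists was at 0 in all samples. The part of such cells in the annexin and S100 values was not tested.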

How the data were processed

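Each of 70 RNA samples was hybridised to 2 Affymetrix arrays (A and B). Signals were deposited by the authors as linear intensity and came from MAS5, per the submitters' processing notes (version: not given in the sources used here). A trimmed mean of the 100 control probe sets shared by both designs was 2500 on every A array. It was not computed for the B arrays. Array number, not depth, limits the precision.

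Labels gave course and day. A Dppa4 knockdown, which the series' design text names, is not analysed here. The pseudocount added before log2 was each table's 20th percentile (63.1 on A, 21.8 on B), so folds understate changes of dim probe sets. Probe sets above the table median (283.3 on A, 89.2 on B) on at least 3 arrays were kept. Control probe sets were left out, leaving 32792. limma 3.58.1 (R 4.3.3) was run per table, each course having its own natural spline in day (3 degrees of freedom), and eBayes used an intensity trend. Benjamini-Hochberg adjustment covered both tables together, with a threshold of 0.05. SEs are limma's. The fit was also run on simulated data with independent errors about the fitted curves. That run cannot judge how single serial samples depart from such curves. Where a member's call depended on the sample left out, the adjusted p of that limma fit is given as a record of stability, not as evidence for the member.

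The brightest probe set of a gene led the text. From the lists of other annexins, other S100 genes and partners, up to 4 genes that passed per comparison were named by size, and up to 2 others. Like genes were the 3 with the highest Pearson correlation. Members and lists, including marker lists of embryonic stem cells, trophectoderm, fibroblasts and extraembryonic endoderm, were chosen with earlier results of these data known. Neighbours and promoter windows are from RefSeq. Alternatives changed the pseudocount, filter, scaling, probe set choice, curve, block, samples fitted and trend, and left out single samples. Leaving out the 3 samples farthest from their curves was chosen after seeing the data.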

Additional observations from a re-analysis of the deposited data

Results flagged for a closer look

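Among 108 combinations of a course and a tested probe set, 6 had 1 day far from the other days of that course, where chance alone flags about 1 in 20. On Anxa2 1419091_a_at day 1 of the Tcl1 course read 1729.6, with the nearest other day at 3562.4. On the dimmer Anxa2 1437692_x_at day 0 of the Tbx3 course read 16.1 (nearest 200.6), day 1 of the Tcl1 course 72 (nearest 199.5), day 1 of the Mm343880 course 12.5 (nearest 101.5) and day 5 of the empty vector course 22.6 (nearest 101.3). On Anxa4 1421223_a_at day 2 of the Mm343880 course read 128.4 (nearest 317.6). All 6 were the lowest day of their course.

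For 3 probe sets some courses were above and others below the empty vector on each of days 4, 5 and 6, and the difference between those courses was not tested. Anxa4 1424176_a_at was higher with the Nanog (log2 difference 1.97), Oct4 (1.48), Sox2 (1.60) and Esrrb hairpins (1.02), and lower with the Mm343880 hairpin (-0.79) and retinoic acid (-0.55). S100a10 1416762_at was higher with the Oct4 (0.49), Esrrb (1.01) and Tcl1 hairpins (0.88), and lower with retinoic acid (-1.27). S100a10 1456642_x_at was higher with the Oct4 (0.67), Esrrb (0.98) and Tcl1 hairpins (0.61), and lower with retinoic acid (-0.50).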

How the results depend on the processing

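The 60 called member values had 1746 alternatives, of which 1650 stayed past the threshold in the same direction and 0 reversed. Counts of called member probe sets moved by over 1.5 times as follows. With a plain mean of the window in place of the curve, the count was 4 (from 7) for the Oct4 hairpin, 4 (from 7) for Esrrb, 3 (from 5) for Tcl1, 3 (from 6) for Mm343880 and 3 (from 6) for the Nanog, Oct4 and Sox2 courses against the Esrrb, Tbx3 and Tcl1 courses. For the change over time with the empty vector (2 in the fit as reported), the count was 0 with a pseudocount at the table median, with no spline and in a fit of only that course. It was 1 with no filter, with quantile normalization, with 2 spline degrees of freedom, without trend, and with day as replicate block, and between 0 and 1 over the fits that left out 1 sample. Leaving out 1 sample gave 3 to 7 for the Mm343880 hairpin, 3 without its day 5, and 1 to 5 for the change over time with retinoic acid, 1 without its day 6 and 5 without its day 0. The replicate block, which shares day between courses, has no pairing of its own in the labels. The cause of these moves was not tested. Calls over all probe sets also moved by over 1.5 times without 1 sample: to 923 (from 3794) for Mm343880 and 7222 (from 14224) for retinoic acid, both without their day 6, to 1731 (from 2783) for Esrrb, 1383 (from 2620) for Tbx3 and 964 (from 2096) for Tcl1, each without its day 5, to 3145 (from 8294) for the change with retinoic acid without day 6, and to 6 or 275 (from 134) for the change with the empty vector without day 0 or day 5. With plain means of the window they were 3333 (from 5066) for Nanog, 1644 for Esrrb, 1413 for Tbx3, 988 for Tcl1, 1873 for Mm343880 and 23 for the change with the empty vector. A fit of only the courses compared gave 2446 for Mm343880 and 23 for the change with the empty vector, which was 269 without the 3 samples farthest from their curves. With 1 probe set per gene fewer features were tested, and the counts were 3193 for Nanog, 3507 (from 5408) for Sox2, 1839 for Esrrb, 1730 for Tbx3, 1319 for Tcl1, 2135 for Mm343880, 7436 for retinoic acid, 4863 for its change over time and 4581 (from 8127) for the Nanog, Oct4 and Sox2 courses against the Esrrb, Tbx3 and Tcl1 courses. Single samples per day and dim probe sets, such as those of S100a4, limit what can be read.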
